A study of Homo sapiens with 6 samples.

Results

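The 10 genes described here encode β-catenin, the complex that marks it for destruction and the factors it joins on DNA. They are *APC*, *AXIN1*, *GSK3A*, *GSK3B*, *CSNK1A1*, *BTRC*, *CTNNB1*, *TCF7L1*, *TCF7L2* and *LEF1*, taken by symbol from a table of 19225 genes, and all 10 were among the 12884 genes tested. The libraries came from SW480 cells, an established colon cancer line with mutant p53, of which 3 were controls and 3 came from cells transiently transfected with plasmids encoding MDM4, a relative of MDM2 that binds p53. Plasmid transfection is recorded for both groups and mutant p53 is shared by all 6 libraries, while the plasmid given to the controls and the time after transfection are not stated in the sources used here. Replicates are numbered 1 to 3 in each group, and nothing says whether they came from separate cultures, so that p-values measure the spread between these libraries, which may be technical.

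Expression was given as FPKM, that is, reads on a gene divided by its length and by the total of the library, so that genes can be compared with each other per length. The reads behind the values were recovered from the table, and the genes of a library held 44361140, 35363170 and 39901790 reads in control replicates 1 to 3 and 36110748, 34431142 and 32772636 reads in MDM4 replicates 1 to 3. Replicate 3 differed from replicates 1 and 2 in the control and the MDM4 group alike, across much of the transcriptome. Results are therefore given over all libraries first, and some of them also with replicate 3 set aside or set against the rest.

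The destruction complex is built on the scaffolds APC and Axin, on which CK1α and then the GSK3 kinases phosphorylate β-catenin, so that the β-TrCP ubiquitin ligase can recognise it and send it to the proteasome. When a Wnt ligand silences the complex, or when APC is truncated as it is known to be in SW480 and most colon cancers, β-catenin gathers, enters the nucleus and binds the TCF/LEF factors, which otherwise hold their target genes down. MDM4 is known to bind CK1α. These are messenger RNA levels, and neither protein nor phosphorylation was measured.

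The cells carried the marks of an epithelial line. Of 10 colon epithelial markers, 7 were above 1 FPKM in every library, with *KRT8*, a keratin, the most abundant at 1550 to 1876 FPKM, *EPCAM* at 156 to 167 FPKM and *CDX2* at 9.99 to 14.2 FPKM, while *KRT20* stayed at or below 0.590 FPKM and *CEACAM5* at or below 0.0640 FPKM. Markers of other cells were low. The 6 fibroblast markers summed to between 1.75 and 3.94 FPKM, mostly *COL1A1*, with 4 of them under 0.1 FPKM throughout, the 7 immune markers to between 6.01 and 7.25 FPKM, mostly *CD68*, and the 3 endothelial markers to between 0.316 and 0.648 FPKM. The fibroblast and endothelial sums were highest in the replicate 3 libraries of both groups. The part of these low signals in the results was not tested.

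*MDM4* itself checked the labels. The 3 control libraries had 6.35, 7.09 and 5.13 FPKM, listed here and below in the order of replicates 1 to 3, and the MDM4 libraries had 188, 185 and 56.3 FPKM. Every MDM4 library was above every control library, by 29.7-fold, 26.1-fold and 11.0-fold in the pairs of replicates 1, 2 and 3. The log2 fold change was 4.33 ± 0.434 (SE), with a limma adjusted p of 0.161 over all 6 libraries and of 4.8e-05 in the fit blocked by replicate number.

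Levels of the 10 genes kept nearly 1 order across the libraries. *CTNNB1*, which encodes β-catenin, was the most abundant, with a mean of 250 FPKM over the 6 libraries and above 98.5% of the genes tested. *CSNK1A1* (CK1α) followed at 128 FPKM, then *GSK3A* at 42.2 FPKM, *TCF7L2* at 17.8 FPKM, *AXIN1* at 14.7 FPKM, *GSK3B* at 14.7 FPKM, *LEF1* at 8.21 FPKM, *APC* at 6.81 FPKM, *BTRC* at 6.20 FPKM and *TCF7L1* at 4.19 FPKM. Each gene was above the next in all 6 libraries with 2 exceptions, as *TCF7L2* exceeded *AXIN1* in 5 of 6 and *AXIN1* exceeded *GSK3B* in 3 of 6. *AXIN1* and *GSK3B* thus did not differ beyond their spread. The counts behind these levels were between 28552 and 38917 reads for *CTNNB1* and between 358 and 582 reads for *TCF7L1*, the least covered member. *CSNK1A1L*, a retrogene copy of *CSNK1A1* with which reads could be shared, had at most 3 reads in a library.

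**Figure D1:**
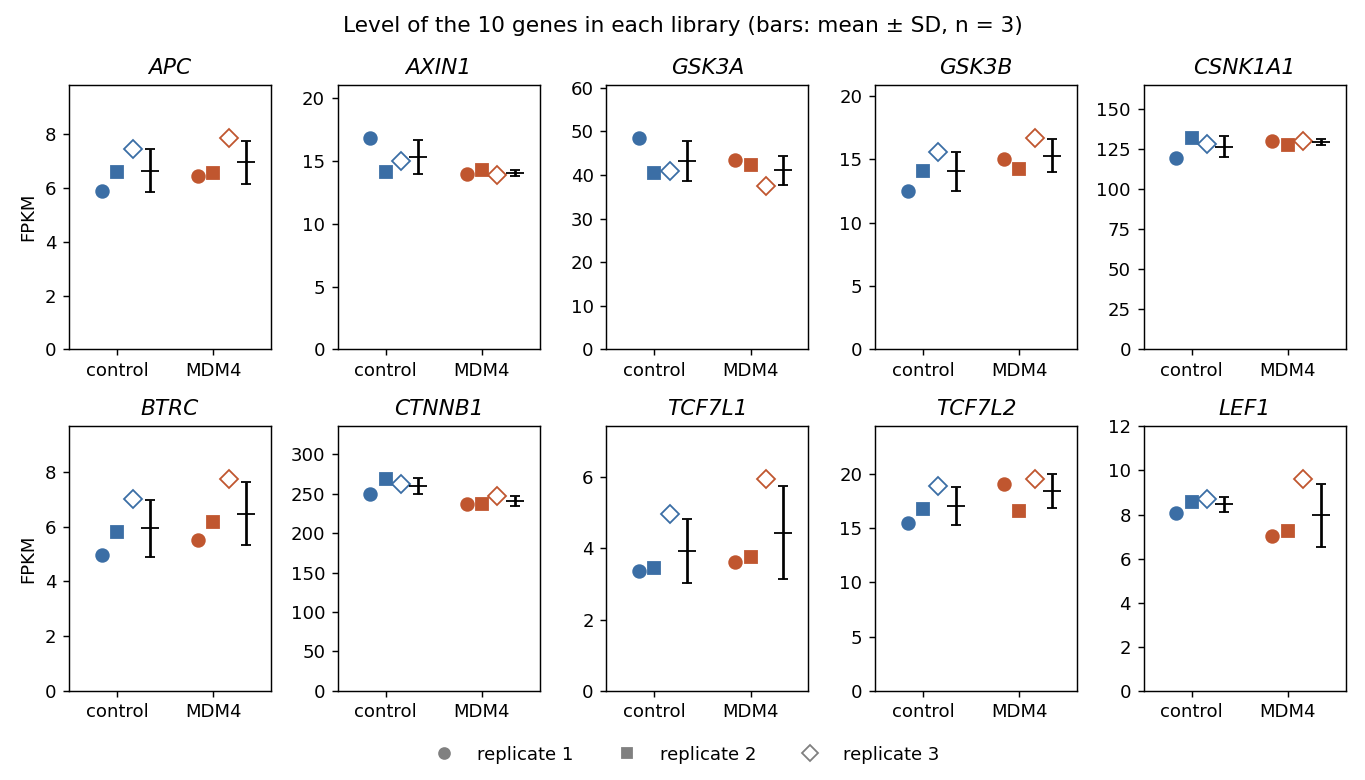
FPKM (vertical axes, from 0) of the 10 genes in the 3 control (blue) and 3 MDM4 (orange) libraries, with circles, squares and open diamonds for replicates 1, 2 and 3 and black bars for the mean ± SD. The diamonds lie above the other points of their group for *APC*, *BTRC*, *GSK3B*, *TCF7L1*, *TCF7L2* and *LEF1*, and the MDM4 points of *CTNNB1* lie below its control points.

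The first question was whether the MDM4 plasmid shifted the messages of the complex. No gene was called between MDM4 and control at an adjusted p under 0.05 (limma, 0 of 12884 genes, 0.0%; 222 at an unadjusted p under 0.05), and limma with voom on the recovered reads called 0 as well. Left-out libraries changed this to 21 genes without control replicate 3 and 1 without MDM4 replicate 3. *MDM4* itself did not pass in the fit over all libraries, though it did in both of these left-out fits. None of the 10 members was called over all libraries, and there each had an adjusted p of 0.9999. Blocking by replicate number gave 2 called genes, *MDM4* among them, and the lowest adjusted p among the members was 0.374, that of *CTNNB1*.

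Among the scaffolds, *APC* was at 5.89, 6.61 and 7.46 FPKM in the controls and at 6.44, 6.56 and 7.87 FPKM in the MDM4 libraries. The groups overlapped, with a log2 fold change of 0.06 ± 0.140 (SE; 95% interval -0.26 to 0.39). *AXIN1*, the limiting scaffold in many accounts of the complex, was at 16.9, 14.2 and 15.0 FPKM in the controls and at 14.0, 14.3 and 13.9 FPKM with MDM4. Only control replicate 1 stood out, and the log2 fold change of -0.12 ± 0.097 (SE; 95% interval -0.35 to 0.10) was within the spread of the control libraries.

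None of the kinase genes was called, and *GSK3B* alone among them differed the same way in all 3 pairs. *CSNK1A1*, whose protein starts the phosphorylation of β-catenin and binds MDM4, was at 120, 132 and 128 FPKM in the controls and at 130, 128 and 131 FPKM in the MDM4 libraries. Its mean was 127 ± 6.47 FPKM against 130 ± 1.66 FPKM (SD, n = 3), and the interval of the log2 difference, -0.11 to 0.17, was the second narrowest of the members after that of *CTNNB1*. *GSK3A* was at 48.5, 40.4 and 40.9 FPKM in control and 43.5, 42.2 and 37.4 FPKM in MDM4 libraries. *GSK3B*, which encodes the second GSK3 kinase, was at 12.5, 14.1 and 15.6 FPKM in control and 15.0, 14.2 and 16.7 FPKM in MDM4 libraries. *GSK3B* was above its control by 0.26, 0.02 and 0.10 on the log2 scale in the pairs of replicates 1, 2 and 3. The groups overlapped for both, with log2 fold changes of -0.07 ± 0.10 and 0.13 ± 0.115 (SE). *BTRC*, which encodes the substrate receptor β-TrCP of the ubiquitin ligase, was at 4.95, 5.81 and 7.03 FPKM in control and at 5.52, 6.16 and 7.74 FPKM in MDM4 libraries. It was above its control in each of the 3 pairs, by 0.15, 0.08 and 0.14 on the log2 scale, yet the spread from replicate 1 to replicate 3 within a group was wider than these differences.

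β-catenin gave the only separation of the groups. *CTNNB1* was at 249, 269 and 262 FPKM in the controls and at 237, 237 and 247 FPKM in the MDM4 libraries. All MDM4 libraries were thus below all control libraries, although MDM4 replicate 3 lay just under control replicate 1. The means were 260 ± 9.91 and 241 ± 5.89 FPKM (SD, n = 3). On the log2 scale the difference was -0.11 ± 0.054 (SE; 95% interval -0.24 to 0.01), and the unadjusted p was 0.076. An exact two-sided permutation test of the FPKM gave p = 0.1, the smallest that 3 against 3 libraries allow. Groups that do not overlap were found for 6.85% of the genes tested and for 1 of the 10 members, a share near the background. Blocked by replicate number the unadjusted p was 0.036 and the adjusted p 0.374 (limma), and with replicate 3 set aside it was -0.12 in log2 fold change with an adjusted p of 0.640.

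The TCF/LEF factors did not separate. *TCF7L1*, mostly a repressor in this family, was at 3.38, 3.44 and 4.96 FPKM in control and at 3.62, 3.77 and 5.95 FPKM in MDM4 libraries. Over all libraries its log2 fold change of 0.16 ± 0.239 (SE; 95% interval -0.39 to 0.72) was the largest among the members in size and also had the widest interval. With replicate 3 set aside that of *TCF7L1* was 0.11, smaller in size than the -0.22 of *LEF1*. Without MDM4 replicate 3 alone it turned to -0.06. *TCF7L2*, the main factor of the intestinal epithelium, was at 15.5, 16.8 and 18.9 FPKM in control and at 19.1, 16.6 and 19.6 FPKM in MDM4 libraries, and its groups overlapped. *LEF1*, itself a target of the pathway in colon cancer, was at 8.06, 8.58 and 8.72 FPKM in control and at 7.05, 7.23 and 9.61 FPKM in MDM4 libraries. The MDM4 libraries of replicates 1 and 2 were below all controls and that of replicate 3 above them. The difference between replicate 3 and the other pairs in the MDM4 effect on *LEF1* was 0.36 ± 0.183 on the log2 scale (SE; unadjusted p = 0.078; adjusted p = 0.9998, limma), and with replicate 3 set aside its log2 fold change was -0.22 with an adjusted p of 0.636. Across all genes 25 of 12884 (0.194%) had an MDM4 effect that differed in replicate 3, and none of the 10 members was among them. This difference rests on the single pair of replicate 3, and the 25 became 49 to 112 as each library of replicates 1 and 2 was left out.

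**Figure D2:**
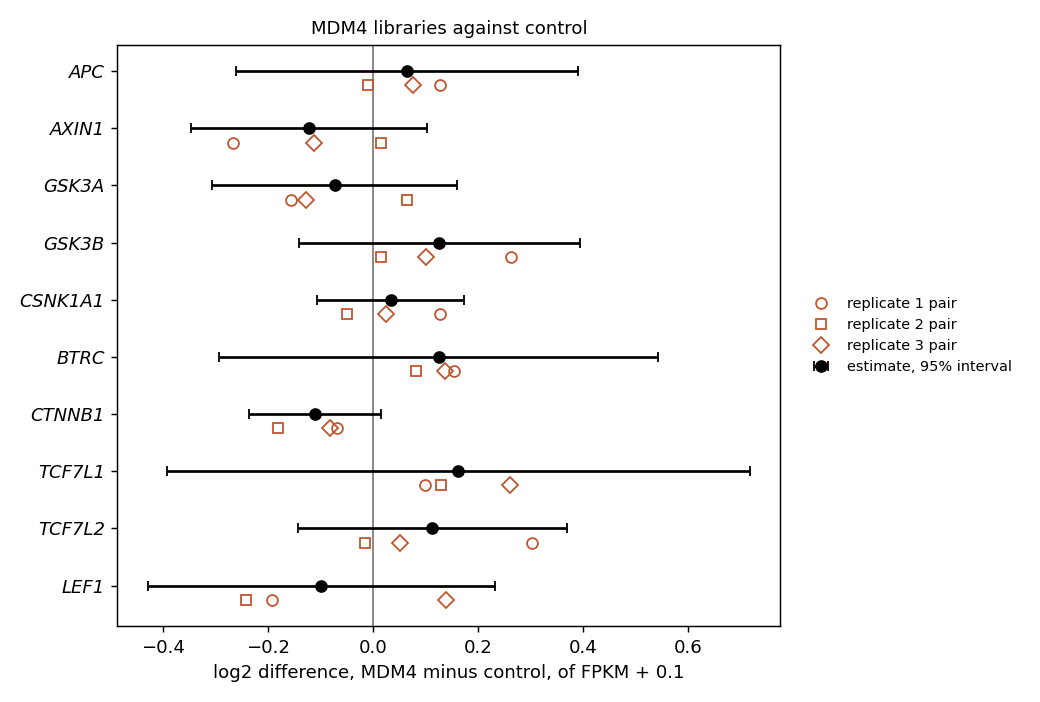
Log2 difference (horizontal axis, MDM4 minus control, of FPKM + 0.1) of each gene, with the limma estimate and its 95% interval in black and the differences of the 3 same-numbered pairs as open orange symbols. Every interval spans 0, and the pairs of *CTNNB1* lie on the negative side while those of *BTRC*, *GSK3B* and *TCF7L1* lie on the positive side.

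The wider pathway was described by lists of its other genes, each with the same test. No gene of the 9 lists was called between MDM4 and control, and the list medians lay between -0.28 and 0.05 on the log2 scale, beside a median of -0.01 over all genes tested. In the list of other complex and ligase genes the largest difference was that of *USP34*, which encodes a deubiquitinase of Axin, at 0.22 ± 0.111 (SE). The largest among the other casein kinase 1 genes was *CSNK1G3* at 0.08, among upstream inhibitors *FRAT2*, which encodes a GSK3-binding protein, at -0.27, among nuclear partners the corepressor *TLE1* at 0.26, and among receptors the co-receptor *LRP6* at 0.26. *WNT5B* was at -0.65 ± 0.526 (SE) among ligands, *DKK4* at -0.75 ± 0.572 among antagonists, *CDH1* (E-cadherin) at 0.14 among adherens junction genes, and *MMP7* at -0.70 ± 0.298, with FPKM of at most 0.997, among target genes.

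Readouts of β-catenin activity were looked at by name. Of the 19 target genes tested, 13 had a log2 fold change below 0, beside 6803 of all 12884 genes tested. Among the others, *CD44* was at 0.10 and *CCND1* at 0.03. *AXIN2*, a negative feedback target and the second Axin, was at 109, 105 and 115 FPKM in control and at 89.9, 87.8 and 110 FPKM in MDM4 libraries, and its log2 fold change was -0.21 ± 0.094 (SE; unadjusted p = 0.063, adjusted p = 0.9999, limma). MDM4 replicates 1 and 2 were below every control and MDM4 replicate 3 was among them. *DKK4*, another feedback antagonist, was at 8.12, 6.69 and 18.5 FPKM in control and at 3.26, 4.47 and 14.2 FPKM in MDM4 libraries. *DKK4* was lower with MDM4 in each pair. Over replicates 1 and 2 alone, 69 of 12884 genes (0.536%) were called, 3 higher and 66 lower. *DKK4* was the only one of them in the 9 lists (log2 fold change -0.93 ± 0.161 (SE), adjusted p = 0.022, limma). The fit over all 6 libraries blocked by replicate number called none of the 7 tested genes of its list, *DKK4* included. *LGR5*, a stem cell receptor and target, was near 0 in all libraries, with at most 0.0399 FPKM.

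The second question was how the members differed between replicate 3 and replicates 1 and 2, with the MDM4 group as a term in the fit. Replicate 3 was set against the others because it was seen to stand apart, and no label says what set it apart, so the calls here describe these libraries. At an adjusted p under 0.05, 5685 of 12884 genes (44.1%) were called, 3808 higher (29.6%) and 1877 lower (14.6%), with a median over all genes of 0.09 on the log2 scale. With median ratio scaling the split was 2624 higher (20.4%) and 2775 lower around a median of 0.00, and with quantile normalization 2674 higher (20.8%) and 2544 lower. Without MDM4 replicate 3 the number called fell to 2424, and without control replicate 3 to 2848. Of the 10 members, 4 were called and all 4 were higher, around a member median of 0.20. With median ratio scaling 3 were called, *BTRC* and *TCF7L1* higher and *GSK3A* lower, around a member median of 0.11. After quantile normalization only *TCF7L1* was called, as higher, and the member median was 0.12. Under these scalings the share of members called higher was thus not above the 20.4% and 20.8% of all genes tested. *MDM4* itself was lower in replicate 3, by 1.73 within the MDM4 group and by 0.38 within control on the log2 scale.

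*TCF7L1* moved most. At 4.96 and 5.95 FPKM, both replicate 3 libraries were above the other 4, which lay between 3.38 and 3.77 FPKM. It rose by 0.60 ± 0.099 on the log2 scale (SE; 95% interval 0.38 to 0.82; adjusted p = 0.00087, limma), by 0.53 within control and 0.67 within MDM4. It was called under each scaling and without any single library of replicates 1 and 2. Without MDM4 or control replicate 3 its estimate was 0.53 or 0.67. Such fits, here and below, leave a single replicate 3 library and take their spread from the other libraries alone. The 3 genes whose log2 levels followed *TCF7L1* most closely over the 6 libraries were *ABCC5*, *RASD2* and *PSIP1*, with Pearson's r of 0.998, 0.998 and 0.995, a description in which the replicate 3 libraries carry most of the spread.

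*BTRC* rose by 0.39 ± 0.098 (SE; adjusted p = 0.0086), by 0.38 within control and 0.40 within MDM4. Its replicate 3 libraries, at 7.03 and 7.74 FPKM, were above the other 4, which reached 6.16 FPKM. *APC* rose by 0.26 ± 0.087 (SE; adjusted p = 0.031) and *GSK3B* by 0.21 ± 0.074 (SE; adjusted p = 0.039), and their replicate 3 libraries also lay above the other 4. These calls were less firm than that of *TCF7L1*. The call of *BTRC* was lost without either replicate 3 library (adjusted p = 0.084 without that of control, 0.11 without that of MDM4) and with quantile normalization (0.071). The call of *GSK3B* was lost without MDM4 replicate 1, 2 or 3 or control replicate 3 (adjusted p between 0.067 and 0.27), and so was that of *APC* (0.068 to 0.22), and both were lost with median ratio scaling (0.21 and 0.13), after quantile normalization and without the filter on low values, and that of *GSK3B* also without the group term (0.070) or the eBayes trend (0.068). Between 1 (without MDM4 replicate 3) and 7 members (without control replicate 2) were called as single libraries were left out, with 2 without control replicate 3, MDM4 replicate 1 or MDM4 replicate 2. The estimates of all 4 stayed above 0 under each scaling.

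The remaining members were not called. *LEF1* was at 0.25 ± 0.096 (SE; adjusted p = 0.058), with 0.07 within control and 0.42 within MDM4, and *TCF7L2* at 0.18 ± 0.077 (adjusted p = 0.082). Without control replicate 2 both passed (adjusted p = 0.020 and 0.046), as did *LEF1* without control replicate 3 (0.038). *GSK3A* went the other way at -0.16 ± 0.074 (adjusted p = 0.11), and it passed with median ratio scaling (log2 fold change -0.25, adjusted p = 0.019) and without control replicate 2 (adjusted p = 0.0040). *CTNNB1* at 0.04 ± 0.048, *CSNK1A1* at 0.02 ± 0.053 and *AXIN1* at -0.04 ± 0.081 lay close to 0, where *CTNNB1* and *CSNK1A1* turned negative with median ratio scaling and where *CSNK1A1* turned negative and *AXIN1* positive without control replicate 1. The most abundant members were thus among those that varied least, as the highest library was 1.13-fold the lowest for *CTNNB1* and 1.11-fold for *CSNK1A1*, against 1.56-fold for *BTRC* and 1.76-fold for *TCF7L1*. Both replicate 3 libraries were above the other 4 for 5 members, the 4 called ones and *LEF1*, and for 37.3% of the genes tested.

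**Figure D3:**
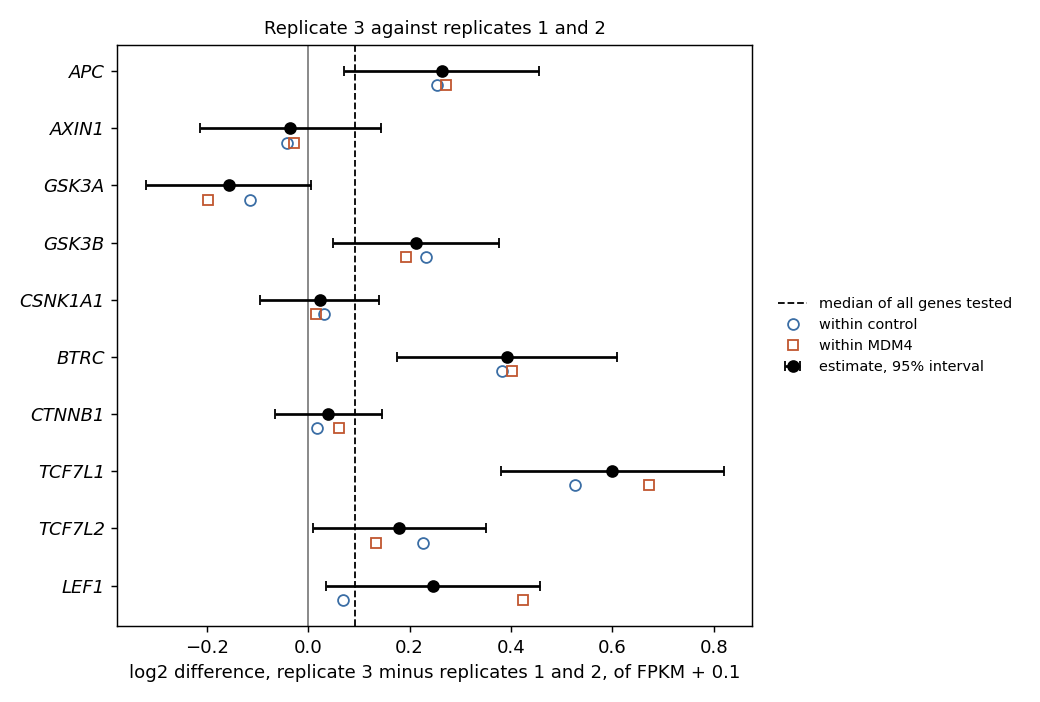
Log2 difference (horizontal axis, replicate 3 minus replicates 1 and 2, of FPKM + 0.1) of each gene, with the limma estimate and 95% interval in black, the difference within control as blue circles and within MDM4 as orange squares, and the median of all genes tested (0.09) as a dashed line. The estimates of *TCF7L1* and *BTRC* lie farthest to the right, *LEF1* lies between them within MDM4, and *GSK3A* lies to the left of 0.

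The summed level and the makeup of the TCF/LEF family are given as a description, with no test. Together with *TCF7*, which encodes the remaining factor and is a target of the pathway, the 3 members summed to 55.6, 55.4 and 73.2 FPKM in control replicates 1 to 3 and to 52.8, 52.4 and 72.8 FPKM in MDM4 replicates 1 to 3. *TCF7* was the largest part, with 43.6% to 55.5% of the sum, and *TCF7L1* the smallest, with 6.08% to 8.18%. *TCF7* was at 28.7, 26.5 and 40.7 FPKM in control and 23.0, 24.8 and 37.7 FPKM in MDM4 libraries, and rose in replicate 3 by 0.61 ± 0.065 on the log2 scale (SE; adjusted p = 7.4e-05, limma). The ratio of *TCF7L2* to *TCF7L1* was 3.81 and 3.29 in the replicate 3 libraries of control and MDM4 and between 4.41 and 5.27 in the other 4. The ratio of *GSK3A* to *GSK3B* was likewise lowest in replicate 3, at 2.62 and 2.24, against 2.87 to 3.88 in the others. Both ratios do not depend on a scaling factor per library.

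**Figure D4:**
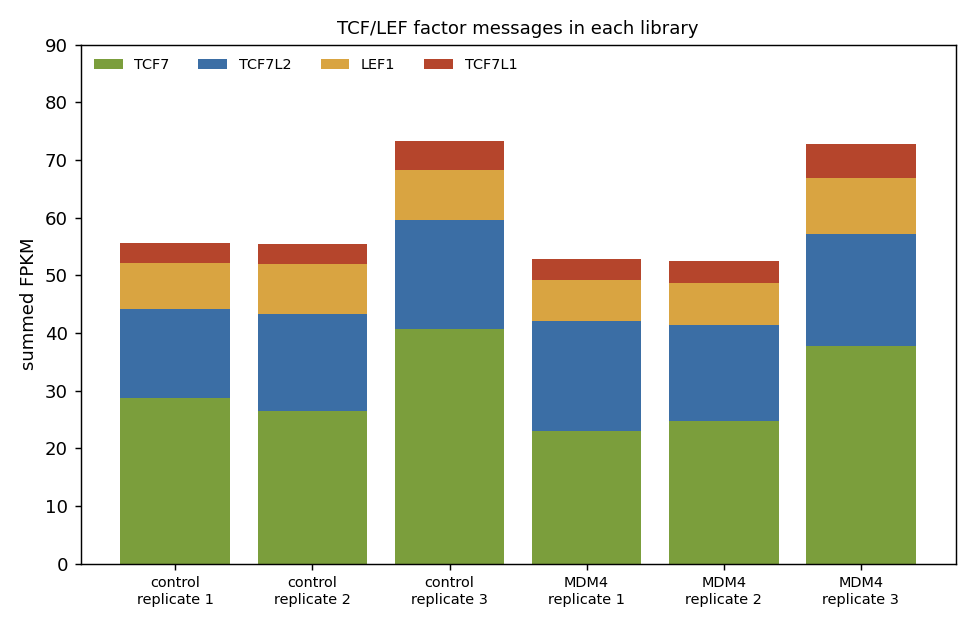
Summed FPKM (vertical axis) of *TCF7*, *TCF7L2*, *LEF1* and *TCF7L1* in each of the 6 libraries, stacked from bottom to top. The replicate 3 libraries reach 73.2 and 72.8 FPKM, above the 52.4 to 55.6 FPKM of the other 4, and *TCF7* makes up most of the difference.

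Promoter sequences of RefSeq (build GRCh38.p14) are shown as a description, over the 250 bases before each start. They were found for 9 of the 10 members in 13 windows, and *BTRC* was not matched. The GC box GGGCGG, read on both strands, was present in 9 of the 13 windows and in 42.6% of the 35116 windows of all genes. Counted by gene, it was in at least 1 window of all 9 members, called or not, and the share by gene over all genes was not taken. The TCF/LEF core was searched as AACAAAG or ATCAAAG or TACAAAG or TTCAAAG on both strands, and it occurred in 1 of the 13 windows, an internal start of *TCF7L2*, and in 12.0% of all windows. Of *APC*, 1 of 2 windows is given, that with a GC box, as the other holds none. A window each of 3 members called in replicate 3 and the *TCF7L2* window with the core are given 5′ to 3′, with GC boxes and the core (as CTTTGTT, 133 bases before the start) in capitals.
TCF7L1, chr2:85133142-85133391, plus strand: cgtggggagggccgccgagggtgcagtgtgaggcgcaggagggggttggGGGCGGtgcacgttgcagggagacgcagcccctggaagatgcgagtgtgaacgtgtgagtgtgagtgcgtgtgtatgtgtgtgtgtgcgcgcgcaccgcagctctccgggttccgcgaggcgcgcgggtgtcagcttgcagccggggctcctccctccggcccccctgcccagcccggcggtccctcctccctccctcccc
GSK3B, chr3:120094448-120094697, minus strand: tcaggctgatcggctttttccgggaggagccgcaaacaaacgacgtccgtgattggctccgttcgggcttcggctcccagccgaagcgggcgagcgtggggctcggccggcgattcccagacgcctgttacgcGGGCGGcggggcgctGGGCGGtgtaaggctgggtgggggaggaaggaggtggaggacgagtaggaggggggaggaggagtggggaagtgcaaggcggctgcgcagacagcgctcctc
APC, chr5:112737635-112737884, plus strand: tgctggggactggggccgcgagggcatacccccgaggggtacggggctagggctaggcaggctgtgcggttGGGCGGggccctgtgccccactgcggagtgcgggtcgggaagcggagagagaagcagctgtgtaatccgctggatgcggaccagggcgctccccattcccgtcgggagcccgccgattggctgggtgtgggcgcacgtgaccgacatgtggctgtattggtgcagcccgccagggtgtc
TCF7L2, chr10:113126383-113126632, plus strand: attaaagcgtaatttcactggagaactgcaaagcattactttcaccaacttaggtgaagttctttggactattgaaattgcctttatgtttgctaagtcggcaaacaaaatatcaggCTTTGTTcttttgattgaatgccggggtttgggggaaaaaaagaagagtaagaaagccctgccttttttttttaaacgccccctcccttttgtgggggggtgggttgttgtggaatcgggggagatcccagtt
A match is a description of the letters, and binding was not measured.

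Around the members, the same replicate 3 comparison was made in the 9 lists. The counts are to be read against the 29.6% of all genes tested that were called higher and the 14.6% called lower. With median ratio scaling 2624 of all genes tested (20.4%) were higher and 2775 were lower. Among 23 tested genes of the complex and its ligase, 10 rose and 2 fell, with a median of 0.13, and with median ratio scaling 7 rose and 5 fell. *PPP2R5B* and *PPP2R5A*, regulatory subunits of the phosphatase PP2A, rose by 0.80 ± 0.094 and 0.53 ± 0.066 (SE), *RNF146*, the ligase that removes Axin marked by tankyrase, rose by 0.47 ± 0.089, and *SIAH1*, a ligase for β-catenin outside the complex, fell by 0.58 ± 0.123. *AXIN2* rose by 0.20 ± 0.056 and kept its direction under each scaling, though its call was lost with median ratio scaling, while *PPP2R1A*, the most abundant gene of the list at 104 to 120 FPKM, was not called. In the casein kinase 1 family, 1 of 5 rose (*CSNK1G3*, 0.30 ± 0.076) and 1 fell (*CSNK1D*, -0.36 ± 0.056), the latter being the most abundant at 46.7 to 64.2 FPKM.

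Upstream of the complex more genes rose than fell, beside 29.6% higher and 14.6% lower among all genes tested. The lists were not tested against each other. Of 10 tested genes that inhibit it or tune Dishevelled, 8 rose and none fell, with a median of 0.49. They included *FRAT1*, which keeps GSK3 from Axin, at 1.24 ± 0.223, *DIXDC1*, a DIX domain protein, at 1.17 ± 0.116, *DACT3* at 1.01 ± 0.187 and *NKD1*, a feedback antagonist, at 0.77 ± 0.076 (SE), and *NKD1* stood at 41.1 and 42.5 FPKM in replicate 3 and at 21.5 to 27.2 FPKM elsewhere. *CXXC5* was the most abundant, at 40.3 to 67.9 FPKM. Of 17 receptor genes 12 rose and 1 fell, with a median of 0.36, and with median ratio scaling 8 rose and 1 fell. They were led by the Frizzled genes *FZD9* (0.95), *FZD2* (0.92) and *FZD4* (0.78) and by *LGR4* (0.87), a receptor for R-spondins. *RYK* was the most abundant of them, at 31.2 to 34.3 FPKM, and was not called.

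Ligands and antagonists were mixed, beside 29.6% higher and 14.6% lower among all genes tested. Of 15 ligand and secretion genes tested, 8 rose and 4 fell, with *WNT11* at 1.32 ± 0.130, *WNT5B* at 1.28 ± 0.274 and *WNT8B* at 1.13 ± 0.230 against *WNT9A* at -0.81 ± 0.084 (SE). The most abundant ligand, *WNT5A*, was among those that fell, from 52.2 to 62.5 FPKM in replicates 1 and 2 to 32.6 and 35.0 FPKM in replicate 3. Of 7 genes for secreted antagonists and the Kremen receptors of DKK proteins, 4 rose and 1 fell, with *DKK4* at 1.59 ± 0.151, *DKK3* at 0.80 ± 0.097 and the membrane receptor *KREMEN1* at 0.62 ± 0.061 (SE) against *DKK1*, the most abundant, at -0.51 ± 0.055. Low coverage left 10 of 25 ligand genes and 6 of 13 antagonist genes below the filter.

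On the nuclear side, 11 of 23 partner genes rose and 5 fell, with a median of 0.17, and with median ratio scaling 7 rose and 5 fell. Among all genes tested 29.6% were higher and 14.6% lower, and with median ratio scaling 20.4% were higher. The corepressors *TLE4* and *TLE1* rose by 1.42 ± 0.171 and 0.52 ± 0.104 (SE) and *NLK*, a kinase that acts on TCF factors, by 0.55 ± 0.067, and *HDAC1* was the most abundant at 97.9 to 114 FPKM. Of 19 target genes 13 rose and 4 fell, with a median of 0.36. *PROX1* (1.44 ± 0.146), *EPHB3* (1.43 ± 0.106) and *TNFRSF19* (0.95 ± 0.092) rose, while *MYC* fell by 0.84 ± 0.053 (SE), from 194 to 213 FPKM in replicates 1 and 2 to 117 and 113 FPKM in replicate 3, and *CCND1*, the most abundant, from 522 to 554 FPKM to 364 and 363 FPKM. Targets of the pathway thus went both ways. Of 6 adherens junction genes 4 rose slightly (*CDH3*, *JUP* and *CTNND1* by 0.16 to 0.24, and *CTNNA1*, the most abundant, by 0.15) and *VCL*, for vinculin, fell by 0.55 ± 0.057, and with median ratio scaling none of the 4 passed. Of the 20 target genes, 9 stand in another list as well, and *LEF1* is also a member.

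**Figure D5:**
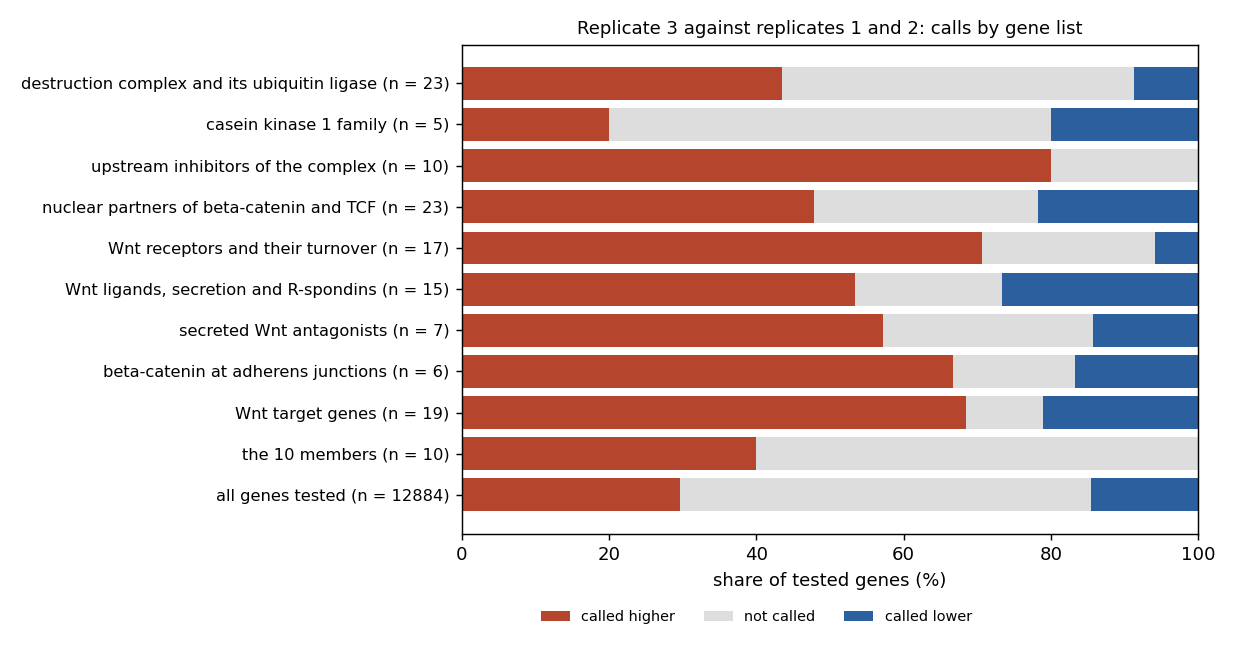
Share of tested genes (horizontal axis, %) called higher (red), not called (grey) and called lower (blue) in replicate 3 against replicates 1 and 2, for the 9 lists, the 10 members and all genes tested, with the number tested in brackets. The share called higher lies above the 29.6% of all genes in 8 of the 9 lists, from 43.5% of the complex and ligase genes to 80.0% of the upstream inhibitors, and below it in the casein kinase 1 family (1 of 5), and it is 40.0% of the members. The number of lists above all genes was 9 with TPM scaling, quantile normalization or the replicate block and 7 with median ratio scaling.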

How the data were processed

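The authors enriched mRNA with oligo(dT), sequenced it and deposited FPKM for 19225 symbols (2036 at 0 throughout), and the aligner, annotation and strand setting are not given in the sources used here. FPKM of a gene were whole multiples of one step per library, and whole reads were recovered for 100% of the 12884 tested genes (tolerance 0.003 reads or a share of 2e-08). Column letters were read as control and MDM4, the label 'exercised' being taken as MDM4. limma 3.58.1 in R 4.3.3 was fitted to log2(FPKM + 0.1) where a gene averaged 0.5 FPKM or more (eBayes with trend, Benjamini-Hochberg), and was tested on simulated data. A log2 fold change on this scale understates the change of low genes. A call had an adjusted p under 0.05. The members, lists and comparisons were chosen with earlier results of these data known. All members were named, and of each list up to 4 called genes with the largest change per comparison (or the largest if none), its most abundant gene, *AXIN2*, *LGR5*, *NKD1* and *TCF7*. Deviations from group means of same-numbered libraries correlated across genes at 0.46, 0.45 and 0.78. Control replicate 1 with MDM4 replicate 2 gave 0.46 too, and control replicate 2 with MDM4 replicate 1 gave 0.44. These values therefore do not tell which libraries of replicates 1 and 2 pair. Pairs were taken by replicate number alone. Replicates differed beyond sampling noise. Alternatives covered pseudocounts, filters, scalings, voom, blocks and each library left out. Exact tests used scipy 1.17.1.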

Additional observations from a re-analysis of the deposited data

Results flagged for a closer look

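None of the 10 members was called for a difference in the MDM4 effect between replicate 3 and the other pairs. The gene *MDM4* itself was called, as its increase over control was smaller in the replicate 3 pair than in the others, by a log2 difference of -1.35 ± 0.149 (SE; adjusted p = 0.0017, limma with an interaction term), with 56.3 FPKM in MDM4 replicate 3 against 188 and 185 FPKM. This call was lost without the filter on low values (adjusted p = 0.47) and without the eBayes trend (adjusted p = 0.20). The term rests on a single pair, and whether it bears on the members was not tested.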

How the results depend on the processing

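For MDM4 against control, none of the 10 members was called under any alternative run, and *MDM4* was called in 6 of them. The number of genes called, 0 over all libraries, was 2 with the replicate block, 2 with a term for replicate 3, 69 over replicates 1 and 2 alone and 27 with voom and the replicate block (added after seeing the data), and between 0 and 21 with single libraries left out, 21 without control replicate 3. Signs of small log2 differences turned with single libraries left out, and these ranged from -0.0272 to 0.148 for *APC*, -0.0101 to 0.252 for *BTRC*, -0.00811 to 0.0640 for *CSNK1A1*, -0.120 to 0.0113 for *GSK3A* and -0.0622 to 0.338 for *TCF7L1*. Others kept their sign but changed in size, from 0.0446 to 0.203 for *GSK3B* and 0.0443 to 0.188 for *TCF7L2*. Those of *AXIN1* ranged from -0.177 to -0.0525 and those of *LEF1* from -0.240 to -0.0192. For replicate 3, calls among all genes were 5593 in the paired fit (replicate block), 5866 with voom on the recovered reads, 327 with a log2 fold change over 1, and 2424 (without MDM4 replicate 3) to 6424 with single libraries left out. Members called, 4, were 3 with median ratio scaling (2 higher and 1 lower), 2 without the filter, 1 with quantile normalization and 0 with a log2 fold change over 1. They were 2 to 7 with single libraries of replicates 1 and 2 left out. With median ratio scaling *CSNK1A1* was at -0.0657 and *CTNNB1* at -0.0496, and leaving out single libraries gave -0.00868 to 0.0532 for *CSNK1A1* and -0.0875 to 0.0195 for *AXIN1*. The 25 genes whose MDM4 effect differed in replicate 3 became 0 without the filter, 5 without the trend and 49 to 112 with single libraries of replicates 1 and 2 left out. The block changed no call of a member. Causes were not tested. What size of change could be called in a member was not tested, and *TCF7L1*, the least covered, rests on 358 to 582 reads.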
